A study of Mus musculus with 108 samples.

Results

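The genes described here are the 10 that encode the RNA exosome ring, its cap and the nuclear ribonuclease EXOSC10. They were chosen by name: each is a row of the gene count files whose Ensembl mouse ID carries one of the symbols Exosc1 to Exosc10, so the rule itself uses no measured value. All 10 were found, among 55573 gene rows per file. The RNA exosome degrades and trims RNA from the 3′ end. In its core, 6 subunits related to the bacterial enzyme RNase PH (Exosc4, Exosc5, Exosc6, Exosc7, Exosc8 and Exosc9) form a ring, and 3 subunits with RNA-binding S1 and KH domains (Exosc1, Exosc2 and Exosc3) form a cap on it. In mammals this 9-subunit core threads RNA but does not cut it. Cutting is done by attached ribonucleases, among them EXOSC10 in the nucleus and nucleolus and the DIS3 family. Transcription is largely silent in the fully grown oocyte, so transcript levels there are set to a large extent by RNA decay and by changes of poly(A) tail length during meiotic maturation.

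The study measured RNA in single mouse oocytes from females whose Exosc10 gene was knocked out in oocytes (cKO) and from control females. The labels name neither the Cre line nor the deleted exons, the strain or the age, and list no other treatment. PolyA libraries were made from RNA captured on oligo(dT) beads and then amplified. They came from the GV stage (germinal vesicle, before meiosis resumes; 15 cKO oocytes, 7 controls), from oocytes after 3 hours of culture (GV3h; 11 cKO, 8 controls) and from MII (mature eggs taken from the oviduct; 15 cKO, 8 controls). GV and GV3h oocytes were kept in M2 medium. RiboMinus libraries, primed with random hexamers and so not selected for a poly(A) tail, came from GV (7 cKO, 8 controls) and MII (4 cKO, 3 controls). Each polyA group came from 2 females per genotype at GV and 3 at GV3h and MII, and the RiboMinus groups from 2 females each, except that the 3 RiboMinus MII controls came from 1 female, so that there genotype and female cannot be told apart. Females and oocytes are named below by the numbers in the labels.

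Counts per library ranged from 4638718 to 8735914 over the 64 polyA oocytes and from 12319658 to 62675760 over the 22 RiboMinus oocytes. Levels are given as CPM (counts scaled to a common depth with the TMM factors of edgeR, within a library type), and a level of one library type is not compared with that of the other. The 12 oocyte markers summed to between 7530 and 29973 CPM in every oocyte. The 12 granulosa and cumulus markers summed to between 14.3 and 139 CPM and the 3 blood markers to between 0 and 13.8 CPM. The highest blood sum was in the RiboMinus MII cKO group (median 0.471 CPM), where Ptprc led. It was at most 1.13 CPM in any other group. Between 1 and 5 of the 12 granulosa and cumulus markers were at 0 in every oocyte of a group. Their leading marker was Cyp19a1 in 9 of the 10 groups, with means from 12.3 CPM (RiboMinus MII cKO) to 99.1 CPM (polyA MII controls), and Kitl in RiboMinus GV cKO oocytes (15.9 CPM). The defining granulosa gene Foxl2 was at 0 in 3 groups, the controls of polyA GV3h, polyA MII and RiboMinus MII, and was detected in the other 7. A gene was called when its edgeR adjusted p was under 0.05. This test took the oocyte as the sample. Each female had 1 genotype and her oocytes share that source, so its p-values are too small for a statement about females. The result of the same test on counts summed per female is therefore given beside it.

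Positions are those of GENCODE M21 on GRCm38. In the ring, Exosc4 lies at chr15:76327397-76330677, Exosc5 at chr7:25659164-25671368, Exosc6 at chr8:111056339-111057664, Exosc7 at chr9:123113215-123136129, Exosc8 at chr3:54728678-54735393 and Exosc9 at chr3:36552606-36565727. In the cap, Exosc1 lies at chr19:41922292-41933423, Exosc2 at chr2:31670715-31681349 and Exosc3 at chr4:45316613-45342732. Exosc10 lies at chr4:148558429-148582401 and has 25 exons. Exosc1, Exosc3 and Exosc8 are on the minus strand, and the other 7 genes are on the plus strand.

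Exons of other genes cover part of 7 of the 10 genes, which limits what their counts can show. Exosc6 has 1 exon and lies wholly inside the last exon of Aars (alanyl-tRNA synthetase, which charges tRNA with alanine), on the same strand: that exon spans chr8:111055019-111057664 and the last coding base of Aars is at 111055201, so the whole of Exosc6 falls in the annotated 3′ untranslated part of Aars. The counting rule, strand setting and annotation release behind the counts are not given in the sources used here. How reads of these shared bases were assigned is therefore not known. Every Exosc6 value below may hold Aars reads, or may lack Exosc6 reads that were set aside as ambiguous. The other overlaps are with genes on the opposite strand and cover 19.8% of the exon bases of Exosc4 (Oplah), 12.4% of Exosc2 (Gm13427), 10.8% of Exosc9 (Ccna2), 5.66% of Exosc5 (Tmem91), 4.0% of Exosc3 (Dcaf10) and 2.05% of Exosc8 (Supt20). Exosc1, Exosc7 and Exosc10 share no exon base with another gene.

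Exosc10, the targeted gene, was examined first. In polyA GV controls its lowest, median and highest levels were 43.0, 47.4 and 55.6 CPM, against 0, 0.951 and 3.26 CPM in cKO oocytes. At GV3h they were 56.6, 104 and 111 CPM in controls and 0.112, 1.53 and 4.44 CPM in cKO oocytes. At polyA MII they were 45.8, 91.0 and 166 CPM in controls and 0, 0.143 and 2.25 CPM in cKO oocytes. Every cKO oocyte was therefore below every control of its stage. In RiboMinus libraries controls ranged from 94.1 to 162 CPM (median 131) at GV, and cKO oocytes from 0.780 to 8.29 CPM (median 3.83). The 3 RiboMinus MII controls were at 84.9, 103 and 106 CPM and the 4 cKO oocytes at 0.446, 1.45, 2.16 and 3.58 CPM.

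The mean left in cKO oocytes, as a share of the control mean, was 2.31% (GV), 1.62% (GV3h) and 0.562% (MII) in polyA libraries and 2.66% (GV) and 1.94% (MII) in RiboMinus libraries. No Exosc10 read was counted in 1 of 15 polyA GV cKO oocytes and in 6 of 15 at MII, while every GV3h and RiboMinus cKO oocyte held at least 1 read. The largest residual count in 1 oocyte was 116 reads, at RiboMinus GV. The log2 fold change lay between -7.44 (polyA MII) and -5.25 (RiboMinus GV), with edgeR adjusted p-values from 9.14e-13 to 9.93e-05. On female sums the call stood in 4 of the 5 comparisons. It was lost at polyA GV, where 2 females stood against 2 (log2 fold change -5.47, edgeR adjusted p = 0.0825).

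**Figure D1:**
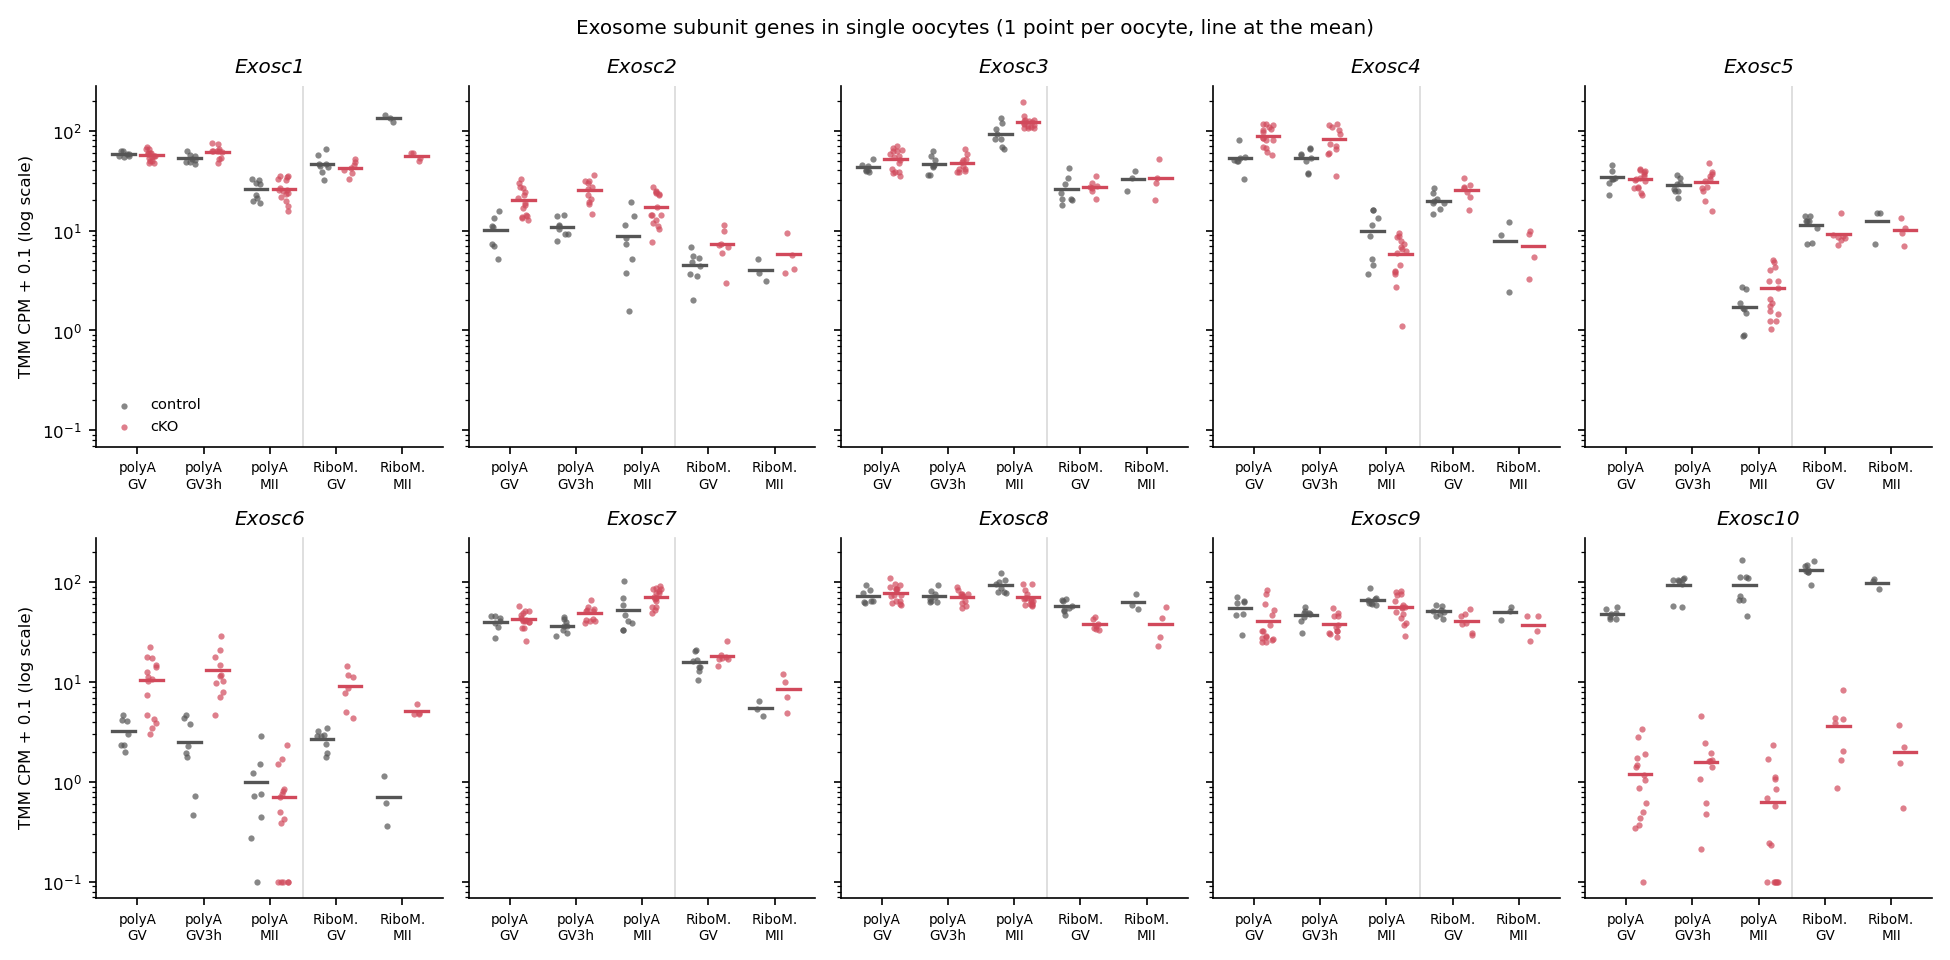
Level of each of the 10 genes in every oocyte (TMM CPM + 0.1 on a log axis) by library type and stage, controls in grey and cKO in red, with a line at each group mean. Exosc10 separates the genotypes in all 5 comparisons, Exosc5 drops from 34.0 to 1.64 CPM between GV and MII in polyA controls while its RiboMinus control means are 11.3 and 12.3 CPM, and Exosc6 is higher in cKO oocytes in 4 of the 5 comparisons.

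To set the genes against each other, levels were divided by the length of the principal transcript in kilobases. In polyA GV controls Exosc1 averaged 57.2 ± 3.33 CPM per kb (SD, n = 7) and Exosc8 56.0 ± 9.51, followed by Exosc3 (39.9 ± 4.52), Exosc7 (37.7 ± 6.04), Exosc9 (34.0 ± 8.87), Exosc4 (29.4 ± 7.80), Exosc5 (20.2 ± 4.30), Exosc10 (17.2 ± 1.83), Exosc2 (5.92 ± 2.23) and Exosc6 (2.37 ± 0.823). Neighbours in this order overlapped in their oocyte ranges, with 1 exception: Exosc10 was above Exosc2 in every oocyte. The transcripts of a complex whose core holds 1 copy of each subunit thus spanned from 57.2 to 2.37 CPM per kb. Cap gene Exosc1 was at the top, and cap gene Exosc2 and ring gene Exosc6 were at the bottom. The Exosc6 value may lack reads of the bases it shares with Aars, so its place at the bottom is uncertain. The next lowest was Exosc2, at 5.92 CPM per kb. In RiboMinus GV controls the top 3 were Exosc10 (47.6 ± 7.29 CPM per kb, n = 8), Exosc1 (45.7 ± 10.3) and Exosc8 (44.4 ± 6.01), which overlapped one another, and the lowest were again Exosc2 (2.62 ± 0.875) and Exosc6 (1.96 ± 0.448). The order depends on the length used: with the length of all annotated exons together, Exosc3 led in polyA GV controls, Exosc1 was at rank 4, and Exosc2 and Exosc6 stayed at ranks 9 and 10. In RiboMinus GV controls that length put Exosc10 first, Exosc6 at rank 8, Exosc5 at rank 9 and Exosc2 at rank 10.

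The make-up of the core transcripts differed by stage and library type. Exosc1 or Exosc8 held the largest share per kb in all 4 polyA GV and GV3h groups, at 18.9% to 20.9% of the 9 genes. At polyA MII the largest share was that of Exosc3, at 30.1% in controls and 36.7% in cKO oocytes. In RiboMinus MII controls Exosc1 alone made up 50.3%, against 33.5% in cKO oocytes. These leaders depend on the length used: with all annotated exons Exosc3 led in polyA GV and GV3h controls, Exosc4 in the cKO oocytes of both, and Exosc3 in RiboMinus MII cKO oocytes.

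**Figure D2:**
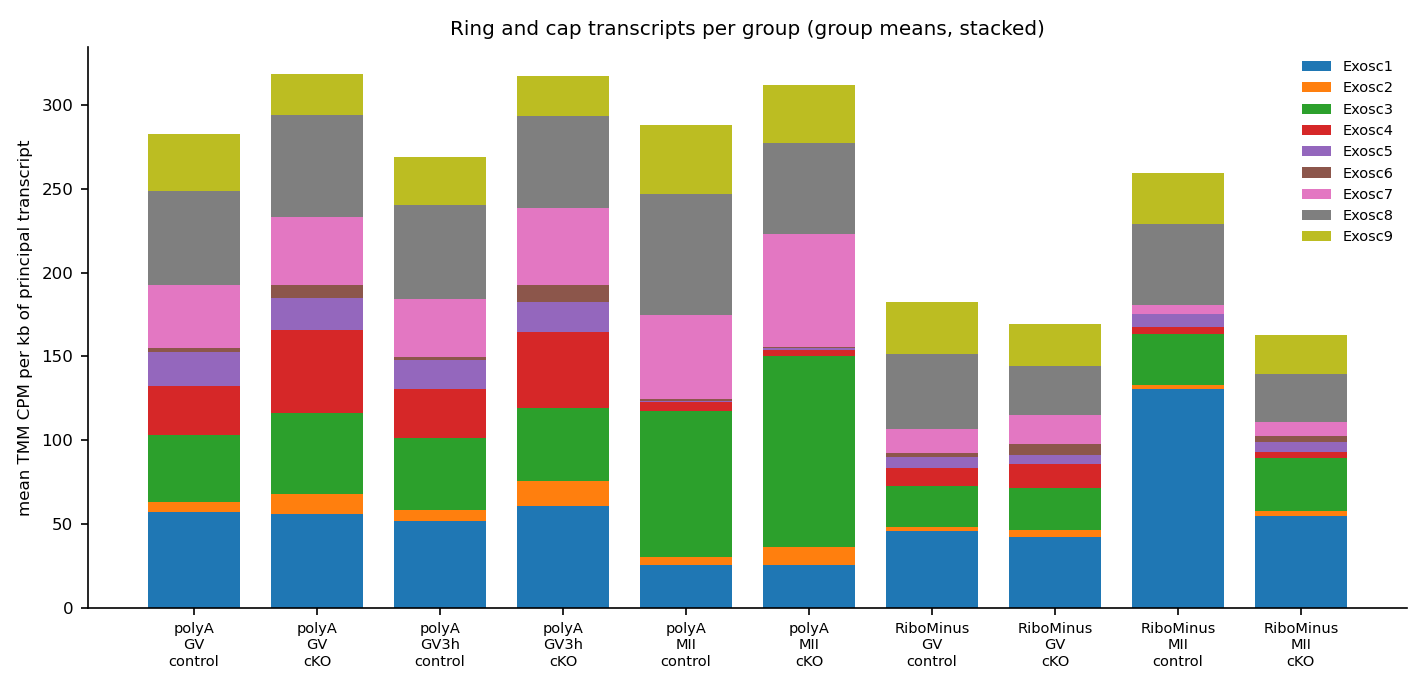
Mean level per kb of principal transcript (TMM CPM per kb) of the 9 ring and cap genes, stacked, in each of the 10 groups. Exosc3 widens at polyA MII (30.1% of the stack in controls), and Exosc1 widens at RiboMinus MII in controls (50.3%); bars of polyA and RiboMinus libraries were scaled separately and their heights are not comparable.

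The genotype comparisons ask whether transcripts of the rest of the exosome change when Exosc10 is lost. No general rise of the 9 core genes was measured, and the genes that were called differed between stages. At polyA GV, 3 of the 9 were called higher in cKO oocytes (Exosc2, Exosc4, Exosc6) and 0 lower, where 40.4% of all 14606 tested genes were called (22% higher, 18.5% lower). At GV3h, 4 of 9 were called higher (Exosc2, Exosc4, Exosc6, Exosc7) and 0 lower, against 55.5% of 13622 genes (29.4% higher, 26.1% lower). At polyA MII, 2 of the 8 tested were higher (Exosc2, Exosc3) and 2 lower (Exosc4, Exosc8), against 37.6% of 12564 genes (19% higher, 18.6% lower). At RiboMinus GV Exosc6 was higher and Exosc8 lower, against 37.6% of 15347 genes (21.2% higher, 16.5% lower). At RiboMinus MII Exosc6 was higher and Exosc1 lower, against 23.7% of 16675 genes (13.9% higher, 9.78% lower). The share of core genes called was thus close to or below that of all genes in every comparison but polyA MII, where it was 4 of 8.

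On female sums, the count of core genes called was 0 at polyA GV (0.00555% of all genes called, and 2 of the 9 at an unadjusted p under 0.05), and 2 at GV3h (39.7%, of which 20.9% higher; Exosc2 and Exosc6, both higher). It was 0 at polyA MII (18.3%, being 8.94% higher and 9.32% lower; 2 of 8 core genes at an unadjusted p under 0.05) and 0 at RiboMinus GV (0.0149%, being 0.00995% higher and 0.00498% lower; 2 of 9). It was 1 at RiboMinus MII (7.54%, being 4.27% higher and 3.27% lower; Exosc1, lower). DESeq2, with the oocyte as the sample, called 3, 5, 4, 3 and 2 core genes in the same 5 comparisons. The median log2 fold change of the core genes was 0.09, 0.21, 0.17, 0.07 and -0.13, against 0.06, 0.03, 0.04, 0.00 and 0.13 over all tested genes. The oocyte ranges of the genotypes did not overlap for 0, 1, 0, 2 and 2 core genes, against 6.29%, 13.2%, 4.5%, 2.41% and 36.5% of all tested genes. Without female V889 (a control) the polyA GV calls of Exosc2, Exosc4 and Exosc6 were lost (edgeR adjusted p = 0.188, 0.112 and 0.0871). Without female V857 (cKO) Exosc3 (log2 fold change 0.45) and Exosc9 (-0.95) were called there as well.

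The summed level of the 9 genes was compared as well, without a test. At polyA GV cKO oocytes held 423 ± 37.6 CPM on average (SD, n = 15), against 369 ± 17.8 CPM for controls (n = 7). The means were 417 ± 41.2 (n = 11) against 349 ± 34.7 CPM (n = 8) at GV3h, and 374 ± 36.5 (n = 15) against 354 ± 51.8 CPM (n = 8) at MII. In RiboMinus libraries the cKO mean was 217 ± 15.1 CPM (n = 7) against 235 ± 20.9 CPM (n = 8) at GV and 200 ± 32.9 (n = 4) against 308 ± 36.9 CPM (n = 3) at MII. The cKO mean was thus above the control mean in the 3 polyA comparisons and below it in both RiboMinus comparisons. At RiboMinus MII the gap came mostly from Exosc1, whose means were 55.5 and 133 CPM.

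**Figure D3:**
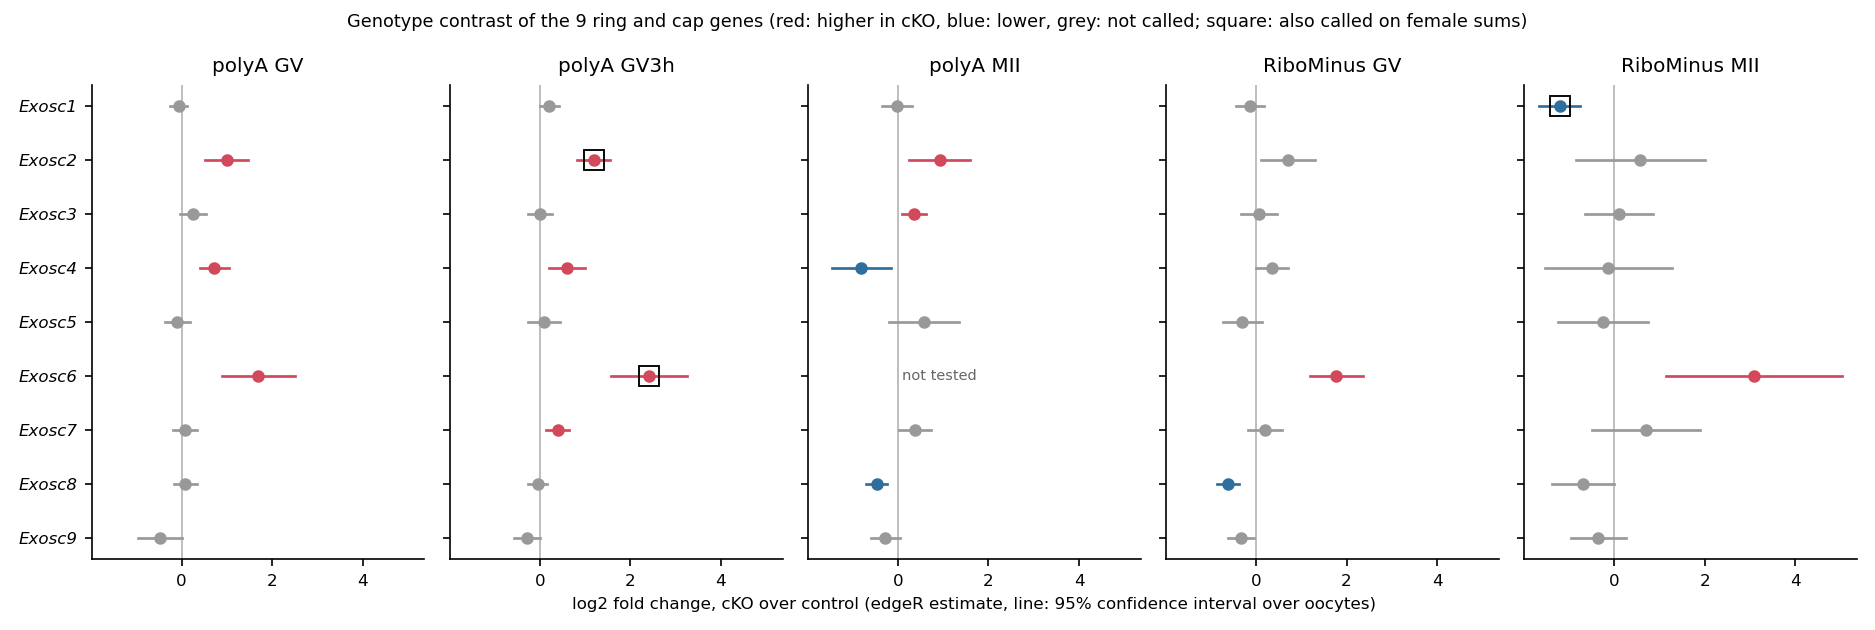
Log2 fold change of the 9 ring and cap genes, cKO over control, in the 5 comparisons (edgeR estimate with its 95% confidence interval over oocytes). Red and blue points were called higher and lower, grey points were not called, and squares mark the calls that stood on female sums: Exosc2 and Exosc6 at polyA GV3h and Exosc1 at RiboMinus MII.

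Among the cap genes, Exosc2 was the gene with the most calls, higher in cKO oocytes in all 3 polyA comparisons. At polyA GV its lowest, median and highest levels were 12.7, 18.6 and 32.9 CPM in cKO oocytes and 5.05, 10.7 and 15.7 CPM in controls. The ranges overlapped, but both cKO females (26.8 and 17.0 CPM) were above both control females (13.3 and 7.48 CPM). The fold change was 1.99 (log2 0.99 ± 0.23, SE; edgeR adjusted p = 0.00147; on female sums 0.291). At GV3h every cKO oocyte was above every control: 14.5, 26.0 and 35.7 CPM against 7.72, 10.7 and 14.4 CPM, a pattern seen in 13.2% of all tested genes. There the fold change was 2.28 (log2 1.19 ± 0.18; edgeR adjusted p = 8.08e-06; on female sums 0.00158).

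At polyA MII Exosc2 levels were 7.57, 14.3 and 27.1 CPM in cKO oocytes and 1.47, 7.84 and 19.1 CPM in controls (log2 0.92 ± 0.33; edgeR adjusted p = 0.0268; on female sums 0.201). Without control female V853 that call was lost (log2 0.59, edgeR adjusted p = 0.221), as it was without cKO female V897 (0.55, 0.491). In RiboMinus libraries the edgeR estimate was 0.70 ± 0.29 at GV (edgeR adjusted p = 0.0605; on female sums 0.303) and 0.58 ± 0.66 at MII (0.577), neither called. At RiboMinus GV Exosc2 was called by DESeq2 (0.73, adjusted p = 0.0368), with library totals (0.81, edgeR adjusted p = 0.0386) and without female V1126 (0.90, 0.0162). A test of whether the genotype difference depended on library type did not call Exosc2 at GV (difference 0.27, 95% confidence interval -0.45 to 0.99).

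Exosc1 was not called in polyA libraries, with log2 fold changes of -0.06 at GV, 0.21 at GV3h and -0.02 at MII; at GV3h it was called with library totals in place of TMM factors (0.39, edgeR adjusted p = 0.00201), by DESeq2 (0.22, adjusted p = 0.0481) and without female V993 (0.33, edgeR adjusted p = 0.0156). At RiboMinus MII it was lower in cKO oocytes. The 4 cKO oocytes were at 49.2, 52.9, 59.9 and 60.1 CPM and the 3 control oocytes at 123, 134 and 143 CPM. The groups did not overlap, which was so for 36.5% of all tested genes in this small comparison. The log2 fold change was -1.20 ± 0.21 (edgeR adjusted p = 0.00186; on female sums 0.0494, where the spread was estimated from the 2 cKO females and the single control female was assumed to vary like them).

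Exosc3 differed more between females than between genotypes at polyA GV. The 2 cKO females averaged 38.3 and 59.2 CPM and the 2 control females 39.4 and 45.7 CPM (log2 fold change 0.26, not called; with library totals 0.41, edgeR adjusted p = 0.0204). At polyA MII it was called higher in cKO oocytes, at 106, 119 and 191 CPM (lowest, median, highest) against 65.9, 87.3 and 133 CPM in controls (log2 0.35 ± 0.13; edgeR adjusted p = 0.0287; on female sums 0.144). Leaving out female V853, V896 or V897 ended that call, with edgeR adjusted p of 0.179, 0.0552 and 0.261.

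In the ring, Exosc4 was called in opposite directions before and after maturation in polyA libraries, with no call that stood on female sums. In RiboMinus libraries Exosc4 was not called. Its means there were 25.4 CPM in cKO oocytes against 19.8 CPM in controls at GV, and 6.87 against 7.79 CPM at MII. At polyA GV it was at 56.9, 83.8 and 116 CPM in cKO oocytes and at 32.6, 50.7 and 80.0 CPM in controls, with overlapping ranges. The log2 fold change was 0.72 ± 0.16 (edgeR adjusted p = 0.000774; on female sums 0.224). At GV3h it was 0.60 ± 0.19 (edgeR adjusted p = 0.0103; on female sums 0.0748), and 1 cKO female, V993, stood at 110 CPM against 66.9 and 62.2 CPM in the other two. The call was lost without V993 (log2 0.31, edgeR adjusted p = 0.151) and without control female V982 (0.47, 0.0561). At polyA MII, where all levels were far below those at GV, cKO oocytes were called lower: 1.02, 6.08 and 9.39 CPM against 3.56, 10.0 and 16 CPM (log2 -0.81 ± 0.32; edgeR adjusted p = 0.0485; on female sums 0.182). That call is the least firm: it was lost without any 1 of 5 of the 6 females (all but V836), with edgeR adjusted p between 0.0527 and 0.477, and with library totals in place of TMM factors (0.087). Oplah, which overlaps Exosc4 on the other strand, was also higher in cKO oocytes at polyA GV (log2 0.80, edgeR adjusted p = 0.00218; on female sums 0.293) and GV3h (0.58, 0.0244; on female sums 0.0932), at means of 17.7 and 16.2 CPM against 9.99 and 10.7 CPM in controls. Its part in the Exosc4 values was not tested.

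Exosc6 had the largest fold change of the core in the 4 comparisons in which it was tested, from counts that may hold Aars reads. At polyA GV it was at 2.95, 10.6 and 22.2 CPM in cKO oocytes and at 1.88, 2.90 and 4.62 CPM in controls (log2 1.70 ± 0.39; edgeR adjusted p = 0.00125; on female sums 0.173). At GV3h it was at 4.53, 11.4 and 28.6 CPM against 0.363, 2.01 and 4.57 CPM (log2 2.41 ± 0.41; edgeR adjusted p = 3.61e-05; on female sums 0.00274). These levels were low, and at GV3h the lowest cKO oocyte lay just under the highest control.

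At RiboMinus GV all 7 cKO oocytes (4.26 to 14.5 CPM, median 8.63) were above all 8 controls (1.68 to 3.35 CPM, median 2.79), a separation seen in 2.41% of tested genes. The log2 fold change was 1.78 ± 0.27 (edgeR adjusted p = 0.000584; on female sums 0.129; without cKO female V1131 1.12 and 0.125). At RiboMinus MII the cKO oocytes were at 4.67, 4.72, 4.77 and 5.87 CPM and the controls at 0.265, 0.519 and 1.04 CPM, the control values resting on 4, 10 and 16 reads (log2 3.09 ± 0.90; edgeR adjusted p = 0.0254; on female sums 0.0822). That call was lost without V1166, V1167 or any 1 of 4 single oocytes (edgeR adjusted p between 0.0503 and 0.129), with estimates between 2.75 and 3.15. At polyA MII Exosc6 was too low to be tested: its highest level was 2.25 CPM in cKO oocytes and 2.77 CPM in controls, with no read in 5 of 15 and 1 of 8 oocytes.

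Aars, whose last exon holds all of Exosc6, was also higher in cKO oocytes at polyA GV (87.3 against 50.2 CPM on average; log2 0.77, edgeR adjusted p = 0.000596), at GV3h (82.8 against 63.8 CPM; 0.36, 0.00344) and at RiboMinus GV (74.3 against 54.9 CPM; 0.43, 0.0111). On female sums none of these 3 Aars calls stood (edgeR adjusted p = 0.283, 0.0889 and 0.225). At polyA MII and RiboMinus MII it was not called (log2 0.55 and 0.84, edgeR adjusted p = 0.0762 and 0.0686). Exosc6 counts did not keep a fixed proportion to Aars counts. Their median was 13.5% of the Aars count in polyA GV cKO oocytes and 6.4% in controls, 13.2% and 3.53% at GV3h, 10.3% and 5.15% at RiboMinus GV, and 5.36% and 1.06% at RiboMinus MII. At polyA MII it was 0.866% and 2.88%. The share of Exosc6 reads that came from Aars transcripts was not tested.

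**Figure D4:**
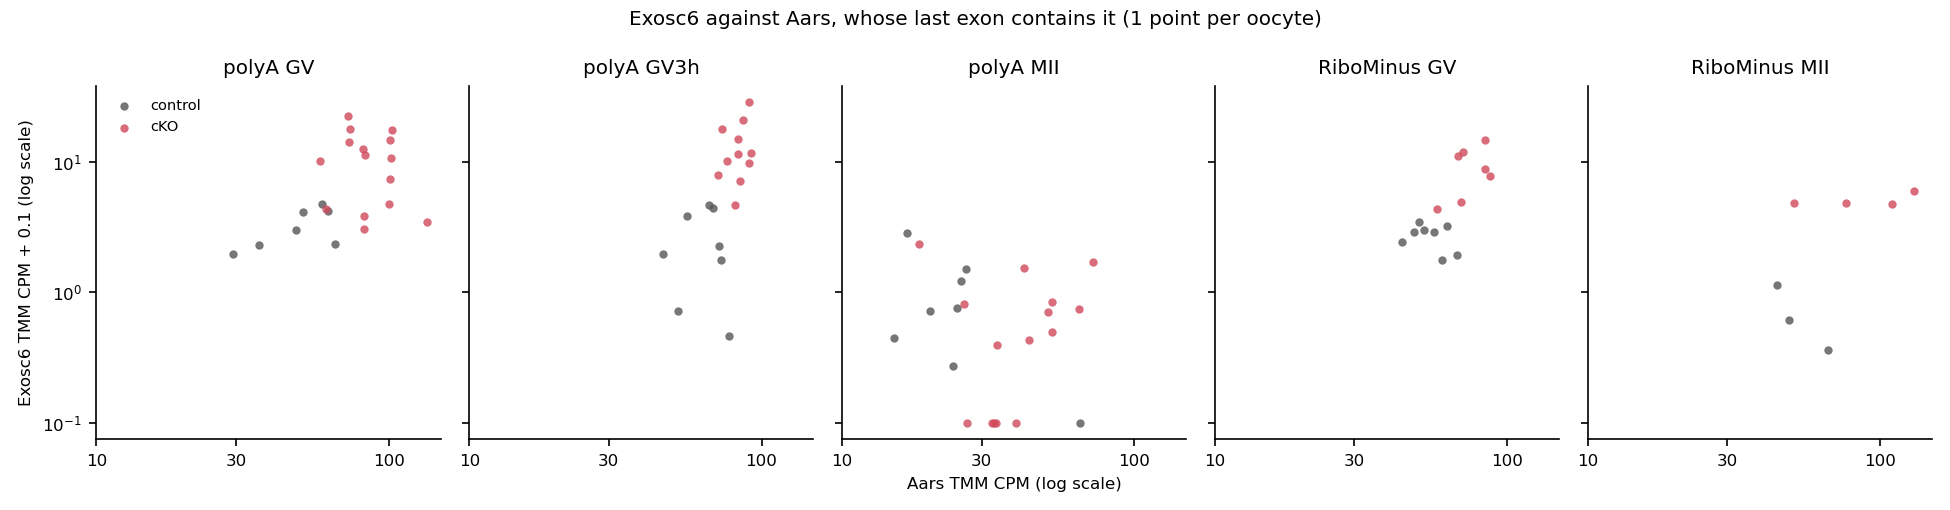
Exosc6 level (TMM CPM + 0.1) against Aars level (TMM CPM) in each oocyte, both on log axes, controls in grey and cKO in red, for the 5 comparisons. At RiboMinus GV and MII every cKO oocyte lies above every control in Exosc6 (lowest cKO 4.26 and 4.67 CPM, highest control 3.35 and 1.04 CPM), while the Aars ranges of the genotypes overlap.

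Exosc8 was lower in cKO oocytes at RiboMinus GV. Its 7 cKO oocytes lay between 33.4 and 44.7 CPM (median 36.7) and its 8 controls between 46.2 and 67.5 CPM (median 56.1). The ranges did not overlap, as for 2.41% of all tested genes. The log2 fold change was -0.62 ± 0.12 (edgeR adjusted p = 0.00143; on female sums 0.15; without cKO female V1131 -0.48 and 0.172). At polyA MII it was also called lower, at 57.9, 68.2 and 95.2 CPM against 78.1, 91.6 and 122 CPM (log2 -0.47 ± 0.11; edgeR adjusted p = 0.00157; on female sums 0.132). That call rested on cKO female V897, which gave 11 of the 15 cKO oocytes: without it the difference was -0.22 (edgeR adjusted p = 0.371). At polyA GV and GV3h Exosc8 was not called, with 95% confidence intervals of -0.17 to 0.35 and -0.27 to 0.17 on the log2 scale. At RiboMinus MII Exosc8 was at -0.68 and not called (edgeR adjusted p = 0.138), but was called lower without cKO female V1167 (-1.22, 0.0254). Supt20, which overlaps Exosc8 by 89 bases on the other strand, was lower in cKO oocytes at polyA GV, GV3h and RiboMinus GV (log2 -0.90, -1.04 and -0.84; edgeR adjusted p on female sums 0.144, 0.00252 and 0.127). Its part in the Exosc8 values was not tested.

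Exosc7 was called once, higher in cKO oocytes at GV3h, with levels of 39.3, 51.0 and 65.7 CPM against 28.5, 36.6 and 45.1 CPM (log2 0.40 ± 0.12; edgeR adjusted p = 0.0079; on female sums 0.0776). All 3 cKO females (43.2, 45.0 and 57.2 CPM) were above all 3 controls (34.1, 33.7 and 39.3 CPM). Without female V993 the call was lost (0.29, edgeR adjusted p = 0.0627). At polyA MII Exosc7 was at 0.38 and not called (edgeR adjusted p = 0.0902), but was called with library totals (0.50, 0.0226) and without control female V836 (0.61, 0.00501). Exosc5 and Exosc9 were called in 0 of the 5 comparisons by edgeR, on oocytes or on female sums, and by DESeq2 as well. Exosc9 was called lower at RiboMinus GV without V1126 (-0.52, edgeR adjusted p = 0.00518) and at GV3h without V983 (-0.34, 0.0453). For Exosc5 the 95% confidence interval of the log2 fold change ran from -0.37 to 0.19 at polyA GV and from -0.26 to 0.45 at GV3h. Exosc9 was below control in all 5 estimates, which ran from -0.48 at polyA GV to -0.28 at polyA MII. At polyA GV its cKO oocytes fell apart by female: V857 averaged 63.4 CPM and V888 28.8 CPM, around control females at 65.3 and 47.4 CPM. Ccna2, a cyclin gene that overlaps Exosc9 on the other strand, was called higher in cKO oocytes at polyA GV (log2 0.50, edgeR adjusted p = 0.0179; on female sums 0.578), GV3h (0.25, 0.0381; on female sums 0.107) and RiboMinus MII (1.9, 0.000186; on female sums 0.0219). Its means in the 5 comparisons lay between 205 and 735 CPM, and its part in the Exosc9 values was not tested.

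The stage comparisons ask how these transcripts change as the oocyte matures. In the first 3 hours of culture few genes were called: edgeR called 0.519% of 12716 genes in controls and 0.602% of 14280 in cKO oocytes. Of the 9 core genes 0 were called in either genotype, with 0 at an unadjusted p under 0.05 and 0 called by DESeq2. Exosc10 was the member that was called, in controls. It averaged 48.1 ± 5.10 CPM at GV (n = 7) and 92.5 ± 22.5 CPM at GV3h (n = 8), and the lowest GV3h oocyte (56.6 CPM) was just above the highest GV oocyte (55.6 CPM), as in 0.456% of tested genes. The log2 fold change was 0.94 ± 0.14 (edgeR adjusted p = 0.00103), but on female sums it was not called (0.87, edgeR adjusted p = 0.875), where 0.0124% of genes were called, all lower. Of the 3 GV3h control females, V982 and V995 averaged 103 and 105 CPM and V951 56.8 CPM, against 50.9 and 45.9 CPM for the GV females. Without V995 the call was lost (0.72, edgeR adjusted p = 0.0875).

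Between GV and MII the share of core genes called in polyA libraries, with the oocyte as the sample, was close to that of all genes. In controls 4 of the 9 were called lower and 2 higher, against 63.4% of 12561 genes (30.1% higher, 33.3% lower). In cKO oocytes 4 were lower and 3 higher, against 74.8% of 13217 genes (33.1% higher, 41.7% lower). On female sums 4 of the 9 core genes were called in controls, against 43.1% of genes (19.9% higher, 23.2% lower). In cKO oocytes 6 of the 9 were called on female sums, a larger share than the 37.7% of all genes (15.9% higher, 21.7% lower). Ring genes Exosc4 and Exosc5 and cap gene Exosc1 fell in both genotypes and cap gene Exosc3 rose in both, also on female sums. Ring gene Exosc6 was called lower in both as well, but on female sums in cKO oocytes alone. The summed level of the granulosa and cumulus markers was also higher at MII in these libraries, at 65.5 to 139 CPM against 21.6 to 76.4 CPM at GV. Cyp19a1, an aromatase gene, led the sum. Its means at GV and MII were 36.8 and 99.1 CPM in controls and 22.1 and 80.6 CPM in cKO oocytes. Foxl2, Amhr2, Fshr and Inha were detected in polyA GV controls and in no polyA MII control, while Ptx3 and Tnfaip6 went the other way. The higher sum is therefore not a rise of the whole marker set. The part of other cells in the changes of the core genes was not tested.

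In polyA controls the largest change was that of Exosc5; in polyA cKO oocytes Exosc6 (-4.08) and Exosc4 (-3.97) changed by more. In polyA controls Exosc5 was at 22.8, 33.0 and 45.6 CPM at GV and at 0.776, 1.57 and 2.64 CPM at MII, a 20.7-fold drop (log2 -4.37 ± 0.27; edgeR adjusted p = 9.62e-11; on female sums 0.000121). The oocyte ranges did not overlap, as for 38.2% of all tested genes. In cKO oocytes Exosc5 dropped 12.9-fold (log2 -3.69). In RiboMinus libraries the same gene did not change detectably: controls were at 7.18, 12.3 and 14 CPM at GV and at 7.30, 14.8 and 14.9 CPM at MII (log2 0.13, 95% confidence interval -0.49 to 0.74), and the cKO estimate was 0.12 (-0.50 to 0.74). Exosc5 thus fell in the RNA captured by oligo(dT), with no change of that size in the random-primed RNA.

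Exosc4 fell in both library types. In polyA controls its mean was 52.8 ± 14 CPM at GV (n = 7) and 9.78 ± 5.10 CPM at MII (n = 8; log2 -2.44 ± 0.30; edgeR adjusted p = 9.32e-07; on female sums 0.000546). In polyA cKO oocytes the means were 89.0 ± 20.3 CPM at GV and 5.74 ± 2.45 CPM at MII (n = 15 each; log2 -3.97). In RiboMinus libraries Exosc4 was at -1.34 for controls (edgeR adjusted p = 0.00631; on female sums 0.00798) and -1.88 for cKO oocytes (0.00416; on female sums 0.161; without V1131 0.0567), against 30.9% and 16.1% of all genes called there. Oplah, which overlaps Exosc4, was also lower at MII in polyA libraries (log2 -2.31 in controls and -3.28 in cKO oocytes; edgeR adjusted p on female sums 0.00992 and 0.00185), and was at -0.08 and -1.13 in RiboMinus controls and cKO oocytes, not called. Its part in the Exosc4 change was not tested. Exosc6 fell by 1.80 and 4.08 on the log2 scale in polyA controls and cKO oocytes and by 2.08 in RiboMinus controls (edgeR adjusted p on female sums 0.0531, 0.00563 and 0.0174). In RiboMinus cKO oocytes Exosc6 was at -0.83 and not called (edgeR adjusted p = 0.139), but was called without V1126 (-1.19, 0.0177). The Exosc6 calls in controls were lost without 1 GV female, V856 or V889 in polyA libraries (edgeR adjusted p = 0.0858 and 0.0693) and V1132 or V1133 in RiboMinus libraries (0.119 and 0.134).

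Exosc1 went in opposite directions in the library types. In polyA controls it fell from a mean of 58.2 ± 3.39 CPM (n = 7) at GV to 25.8 ± 5.85 CPM (n = 8) at MII (log2 -1.19; edgeR adjusted p = 9.4e-07; on female sums 0.00786). In RiboMinus controls it rose from a mean of 46.5 ± 10.4 CPM (n = 8) at GV to 133 ± 10.2 CPM (n = 3) at MII (log2 1.52; edgeR adjusted p = 1.31e-06; on female sums 0.00215). All RiboMinus MII controls came from female V1145, so in every GV to MII change of RiboMinus controls, Exosc4 and Exosc7 included, stage and female cannot be told apart, and the female-sums value rests on 1 female at MII. The RiboMinus cKO means were 42.6 CPM at GV and 55.5 CPM at MII, which was not called (0.39, edgeR adjusted p = 0.147).

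Exosc3, Exosc7 and Exosc10 leaned the other way, towards higher polyA levels at MII. Exosc3 rose from 43.0 ± 4.87 CPM (n = 7) to 93.4 ± 24.1 CPM (n = 8) in polyA controls (log2 1.11; edgeR adjusted p = 4.38e-06; on female sums 0.00127), and by 1.22 in polyA cKO oocytes. In RiboMinus libraries the estimates were 0.33 (controls) and 0.31 (cKO), neither called. Exosc7 was not called in polyA controls (0.41), rose by 0.72 in polyA cKO oocytes (edgeR adjusted p = 2.16e-07; on female sums 0.0194) and fell in RiboMinus controls from 15.7 to 5.39 CPM (log2 -1.54; edgeR adjusted p = 0.000382; on female sums 0.00604). In RiboMinus cKO oocytes Exosc7 was called lower too (-1.11, edgeR adjusted p = 0.0228; on female sums 0.279), a call lost without V1131 (0.137), V1166 (0.154) or either single oocyte of V1166 (0.069 and 0.0581). Exosc10 rose by 0.96 in polyA controls (edgeR adjusted p = 0.00077; on female sums 0.023) and fell by 0.44 in RiboMinus controls (edgeR adjusted p = 0.0312). On female sums, with 1 female at MII, the RiboMinus fall was not called. It was also not called without GV female V1132 (edgeR adjusted p = 0.138) or without the single MII oocyte V1145_2 (-0.35, 0.139).

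Exosc8, Exosc9 and Exosc2 had small estimates. Exosc8 was called higher at MII in polyA controls (log2 0.35, edgeR adjusted p = 0.0292; on female sums 0.0859). That call depends on the scaling: with library totals in place of TMM factors, which shifts the median of all genes by -0.38 in this comparison, Exosc8 is at -0.03. Exosc9 was called higher in polyA cKO oocytes (0.47, edgeR adjusted p = 0.0208; on female sums 0.392), a call lost without cKO female V888 (-0.06) and with library totals (0.02, edgeR adjusted p = 0.918). In polyA controls it was at 0.27 and not called, but was called without V856 (0.47, edgeR adjusted p = 0.0448). Exosc2 was called in none of the GV to MII comparisons by edgeR, with log2 estimates from -0.34 to -0.16. With library totals, which shift the median of all genes by -0.45 in polyA cKO oocytes, Exosc2 (-0.70) and Exosc8 (-0.63) were called lower there.

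**Figure D5:**
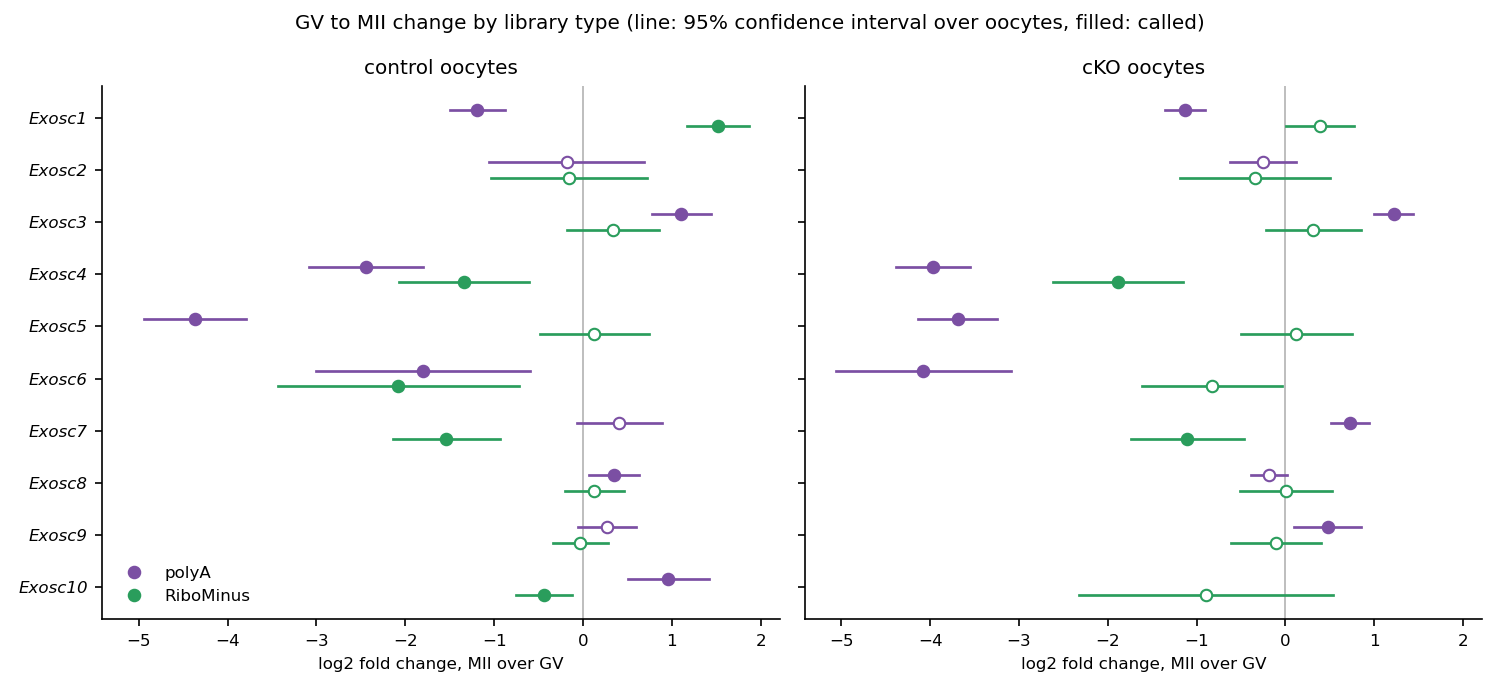
Log2 fold change from GV to MII of the 10 genes in controls (left) and cKO oocytes (right), in polyA (purple) and RiboMinus (green) libraries, with 95% confidence intervals over oocytes; filled points were called. In controls Exosc5 is at -4.37 in polyA and 0.13 in RiboMinus libraries and Exosc1 at -1.19 and 1.52, while Exosc6 is at -1.80 and -2.08; Exosc10 in polyA cKO oocytes was too low to be tested and has no point.

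The dependence of the GV to MII change on library type was tested directly, a comparison added after the values were seen. In controls 4 of the 9 core genes were called, against 49.6% of 15910 genes, and the same count was called on female sums (29.2%). Exosc5 differed by -4.33 ± 0.39 (polyA minus RiboMinus change, log2; edgeR adjusted p = 4.38e-11; on female sums 0.000256) and Exosc1 by -2.53 ± 0.23 (9.25e-11; on female sums 0.000587). Exosc7 differed by 2.11 ± 0.37 (edgeR adjusted p = 1.33e-05; on female sums 0.0056) and Exosc3 by 0.94 ± 0.30 (0.00873; on female sums 0.0225; with library totals 0.45 and 0.193, not called). Exosc10 differed by 1.57 ± 0.31 (edgeR adjusted p = 7.34e-05; on female sums 0.017). In cKO oocytes 7 of the 9 were called, against 45.6% of 17208 genes, and 3 on female sums (12.2%): Exosc5 (-3.57), Exosc7 (2.07) and Exosc4 (-1.85). On female sums the control comparison also rests on the single RiboMinus MII female. The oocytes of the 2 library types came from different females and were prepared with different kits, so a difference in tail length and a difference in preparation or females cannot be told apart here.

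Because the 2 library types differ in whether a poly(A) tail is needed, the annotated 3′ ends of the principal transcripts were read from the GENCODE M21 transcripts. Cytoplasmic polyadenylation in oocytes is known to use a hexamer poly(A) signal with a U-rich cytoplasmic polyadenylation element (CPE) near it. The last 100 bases of each transcript were searched on the transcript strand for the signal AATAAA or ATTAAA and for the CPE letters TTTTAT or TTTTAAT, written with T for U; the 2 kinds of motif may overlap. Of 21815 protein-coding genes, 74.1% held a signal and 16.5% a CPE in that window. Of the 10 exosome genes, 7 held a signal and 4 a CPE (Exosc3, Exosc4, Exosc6 and Exosc8). The 30 bases around the CPE are shown for the 3 genes with a CPE outside Aars, with the CPE in capitals, because Exosc3 rose and Exosc4 fell in polyA libraries.
Exosc3: aattataaaaacTTTTATataataaacttt
Exosc4: tcagccaaataaTTTTATgtttgaggatca
Exosc8: actgcacaggctTTTTATactaaataaata
In Exosc3 the CPE ends 24 bases before the annotated end and in Exosc8 36 bases before it, each followed within a few bases by the signal aataaa, visible in lower case. In Exosc4 it ends 56 bases before the annotated end. Exosc7 and Exosc10 hold a signal and no such CPE letters, shown here with the signal in capitals.
Exosc7: tgtaaatgtaaaAATAAAgtctattttttt
Exosc10: cattttaaaaccATTAAAatgtattcctac
Exosc1 and Exosc5, the pair whose polyA change was called below the RiboMinus change in controls, hold neither motif in the window. In cKO oocytes the polyA change of Exosc1 (-1.28) and Exosc5 (-3.57) was called below the RiboMinus change as well. The same held there for Exosc4 (-1.85) and Exosc6 (-3.02), which each hold a CPE. Annotated ends may differ from those used in oocytes, and a match is a description of the letters.

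Whether maturation changed these transcripts differently in cKO oocytes was tested as an interaction of stage and genotype. From GV to GV3h 0 of the 9 core genes were called by edgeR (0.0959% of 15635 genes; 1 core gene at an unadjusted p under 0.05; 0 by DESeq2). From GV to MII in polyA libraries 3 core genes were called, against 14.7% of 15546 genes. Exosc4 fell further in cKO oocytes by 1.5 ± 0.35 (log2; edgeR adjusted p = 0.00197), Exosc6 by 2.25 ± 0.79 (0.0466) and Exosc8 by 0.51 ± 0.17 (0.0324). On female sums, where 0.0722% of 18010 genes were called, none of the 3 stood (edgeR adjusted p = 0.173, 0.391 and 0.647), and 2 of the 9 core genes had an unadjusted p under 0.05. Each call was lost without some single female, that of Exosc4 without V853 or V889 (edgeR adjusted p = 0.0514 and 0.0689). Exosc10 was called as well (-1.94, edgeR adjusted p = 0.0293; on female sums 0.285), in a cKO group that is near 0 at both stages.

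In RiboMinus libraries the same test called 1 core gene, Exosc1, against 14.8% of 19110 genes. Its change was lower in cKO oocytes by 1.14 ± 0.25 (log2; edgeR adjusted p = 0.00386; on female sums 0.217, where 0% of 25425 genes were called). The genotype difference also depended on library type for Exosc8 at GV (0.69 ± 0.17, polyA minus RiboMinus; edgeR adjusted p = 0.0388; 1.04% of 15737 genes called) and for Exosc1 at MII (1.15 ± 0.30; edgeR adjusted p = 0.00535; 20.6% of 16440 genes called). The Exosc8 call was lost without any 1 of 6 of the 8 females, all but V857 and V1126 (edgeR adjusted p between 0.0536 and 0.251). On female sums edgeR called 0 core genes in these 2 comparisons, where it called 0% of all genes at GV and 4.12% at MII (0 and 2 core genes at an unadjusted p under 0.05; DESeq2 on oocytes called 1 and 2), with Exosc8 at an edgeR adjusted p of 1 and Exosc1 at 0.0669.

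Other genes of the exosome pathway were counted from a list of 20: the catalytic subunits Dis3 and Dis3l, nuclear cofactors and adaptors, and cytoplasmic cofactors such as the SKI complex. In cKO oocytes 7 were called higher and 2 lower at polyA GV, 7 and 7 at GV3h, and 5 and 2 at polyA MII, where 19 were tested. In RiboMinus libraries the counts were 4 and 5 at GV and 2 and 2 at MII. The share of all tested genes called was 40.4%, 55.5%, 37.6%, 37.6% and 23.7% in the same order. On female sums 0, 12, 4, 0 and 1 of the list were called, where 0.00555%, 39.7%, 18.3%, 0.0149% and 7.54% of all genes were. In both comparisons with 0, edgeR on female sums gave an unadjusted p under 0.05 for 5 and 4 of the 20. The median log2 fold change of the list was 0.06, -0.08, -0.04, -0.11 and 0.37.

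Mtrex, Zfc3h1 and Ttc37 are named here because edgeR called each in the same direction in most or all of the 5 genotype comparisons. How many other genes were as consistent was not counted, so the pattern is not shown to be particular to the exosome pathway. Mtrex, the RNA helicase that feeds RNA to the nuclear exosome, was lower in all 5 comparisons. Its means were 69.9 against 126 CPM at polyA GV, 60.4 against 124 CPM at GV3h and 61.8 against 89.8 CPM at MII, with log2 fold changes of -0.88, -1.05 and -0.59. In RiboMinus libraries they were 58.2 against 116 CPM at GV and 43.7 against 104 CPM at MII (-1.01 and -1.21). The edgeR adjusted p-values of Mtrex lay between 0.000113 and 0.0187, and on female sums it was called at GV3h (0.00502) and polyA MII (0.0493).

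Zfc3h1, a zinc-finger protein that links the exosome to polyadenylated nuclear RNA, was higher in all 5, with log2 fold changes from 0.39 to 0.93. On female sums it was called at polyA MII (edgeR adjusted p = 0.0261). Ttc37, a scaffold of the cytoplasmic SKI complex, was lower in 4, with log2 fold changes of -0.51, -0.83 and -0.25 at polyA GV, GV3h and MII and -0.59 at RiboMinus GV, and on female sums it was called at GV3h (edgeR adjusted p = 0.00802). Dis3 and Dis3l, picked for their role after their values were seen, did not rise together: at GV3h both were called lower (log2 -0.53 and -0.40), at RiboMinus GV Dis3 was called lower (-0.54), and at polyA MII Dis3l was called higher (0.44). On female sums only the Dis3l call at GV3h stood among these (edgeR adjusted p = 0.0186).

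The genes whose pattern over the 10 groups was most like each member are given as a description. Pearson's r was taken over the 10 group means of log2 CPM, each library type centred on its own mean, among 11832 other genes (11833 for Exosc6); the groups share stages, libraries and genotypes. Exosc1 was closest to Psma4 (a proteasome subunit, r = 0.99) and Cox5a (a subunit of cytochrome c oxidase, 0.98). Exosc2 was closest to Abce1 and Habp4 (both 0.98), Exosc3 to Mtdh and Gm20627 (both 0.99), Exosc4 to Rffl and Dimt1 (both 0.99), and Exosc5 to Gm45799 and Nme3 (both 1.00). Exosc6 was closest to Ilk and Fig4 (both 0.99), Exosc7 to Spag5 and Zfc3h1 (both 0.96), Exosc8 to Flrt3 (0.96) and Olfr1164 (0.91), and Exosc9 to Fgf9 and Slc2a10 (both 0.98). Exosc10 was closest to Gm26578 and Samd4 (both 0.99). No other core subunit appears in these 10 lists. Only 2 genes are listed per member out of a set this large, so that absence says little and no conclusion is drawn from it. Zfc3h1, listed for Exosc7, is also on the pathway list.

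Among oocytes of the same female, correlations between core genes lay on both sides of 0. Pearson's r of log2 CPM centred by female, over the 36 pairs of the 9 genes, ran from -0.36 to 0.34 with a median of -0.02 in 64 polyA oocytes, and from -0.43 to 0.64 with a median of 0.10 in 22 RiboMinus oocytes. These values share library depth and scaling within an oocyte and are given without a test.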

How the data were processed

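RNA was measured in 86 single oocytes from 23 females, in polyA and RiboMinus libraries; 22 rRNA files were not used. The deposited values are raw counts per Ensembl gene, with no normalization, per the file contents. Per the submitters' processing notes, the authors used mm10, cutadapt 2.5, STAR 2.7.2a, SAMtools 1.9 and HTSeq 0.9.1; the annotation release, strand setting and treatment of duplicates are not given in the sources used here. Of 55573 gene IDs, 55394 had a symbol. The files hold 0 spike-in rows, so changes are relative to the other genes and total RNA per oocyte cannot be seen. In such data fewer transcripts per oocyte and more RNA of other genes cannot be told apart. Summary lines (reads outside genes, 5.85% to 14.2% of reads, and ambiguous reads, 2.07% to 3.19%) were left out. The counts limit precision by counting error only; amplified reads are not independent molecules.

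Each comparison used edgeR 4.0.16 in R 4.3.3 on the groups compared: filterByExpr, TMM factors, quasi-likelihood F test, two-sided, Benjamini-Hochberg over all genes tested, threshold 0.05. The 18 comparisons were 5 of genotype, 6 of stage and 7 interactions, 2 of them added after seeing the data. Fits were tested on simulated counts. Alternatives were DESeq2 1.42.0, its size factors, library totals, no filter on low counts, female sums, limma 3.58.1 voom with the female as random effect, and leaving out each female (and each RiboMinus MII oocyte). For RiboMinus MII on female sums, 2 females stood against 1. P-values over oocytes weigh a group difference against the spread between oocytes, and take oocytes of the same female as independent.

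Groups came from the sample titles. The members and lists were chosen with earlier results of these data known. The search of 3′ ends for motifs was chosen after the values were seen. Named genes were all 10 members, pathway genes called one way in at least 4 of the 5 genotype comparisons, and the 2 genes most like each member. Dis3, Dis3l, the genes that overlap members and the leading granulosa and cumulus markers were named outside this rule, after their values were seen. Fold changes are edgeR estimates. Lengths and overlaps came from GENCODE M21, with the longest APPRIS principal transcript of the best rank. Figures used matplotlib 3.10.9 with pandas 2.3.3 in Python 3.11.15.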

Additional observations from a re-analysis of the deposited data

Results flagged for a closer look

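In 4 of 60 groups of 4 to 10 oocytes (10 genes, 6 groups each) 1 oocyte stood apart from the rest by Dixon's criterion at the 95% level; chance gives about 1 in 20. The highest oocytes were V1126_3 for Exosc5 (14.7 CPM, next 9.0) and V1126_2 for Exosc7 (25.4, next 18.7) in RiboMinus GV cKO oocytes, V1167_2 for Exosc6 in RiboMinus MII cKO oocytes (5.87, next 4.77) and V853_3 for Exosc9 in polyA MII controls (87.9, next 69.5).

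Differences of differences passed the edgeR threshold for 19 gene and comparison pairs, all on the log2 scale. The GV to MII change in polyA libraries differed between genotypes for Exosc4 (-1.5), Exosc6 (-2.25), Exosc8 (-0.51) and Exosc10 (-1.94), and in RiboMinus libraries for Exosc1 (-1.14). The genotype difference depended on library type for Exosc8 at GV (0.69) and Exosc1 at MII (1.15). The GV to MII change depended on library type in controls for Exosc1 (-2.53), Exosc3 (0.94), Exosc5 (-4.33), Exosc7 (2.11) and Exosc10 (1.57). In cKO oocytes it did so for Exosc1 (-1.28), Exosc3 (1.14), Exosc4 (-1.85), Exosc5 (-3.57), Exosc6 (-3.02), Exosc7 (2.07) and Exosc9 (0.83). The Exosc9 value was 0.14 without V888 (edgeR adjusted p = 0.763) and 0.14 with library totals (0.774), and DESeq2 did not call it (0.58, adjusted p = 0.143). On female sums the calls that stood were all 5 of the controls' library comparison, which rests on 1 female at RiboMinus MII, and Exosc4, Exosc5 and Exosc7 of the cKO one.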

How the results depend on the processing

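No paired analysis was possible because the oocyte numbers only count the oocytes of a female, each female has 1 genotype and stage, and the library types came from different females. The number of the 10 genes called moved by over 1.5 times mostly on female sums: from 4 to 0 (polyA GV genotype), 5 to 3 (GV3h), 5 to 1 (polyA MII), 3 to 1 (RiboMinus GV), 1 to 0 (controls, GV to GV3h), 4 to 0 (polyA interaction, GV to MII), 2 to 0 (RiboMinus cKO, GV to MII), 1 to 0 (RiboMinus interaction), 1 to 0 (library at GV), 1 to 0 (library at MII) and 7 to 3 (cKO, library by stage). With voom and a female random effect the counts were 1 at polyA GV, 0 for the polyA interaction, 1 for RiboMinus cKO, 0 for library at GV and 2 for library at MII; with no filter 2 for the polyA interaction and 0 for library at GV; with DESeq2 2 for library at MII. Fewer samples enter the female sums; for the other settings the cause was not tested.

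Leaving out 1 female or oocyte gave these ranges of genes called: genotype 1 to 6 (polyA GV), 4 to 6 (GV3h), 1 to 6 (polyA MII), 1 to 5 (RiboMinus GV) and 2 to 3 (RiboMinus MII); GV to GV3h 0 to 1 (controls), 0 to 3 (cKO) and 0 to 0 (interaction); GV to MII 6 to 7 and 6 to 8 (polyA controls and cKO), 1 to 4 (interaction), 3 to 5 and 0 to 3 (RiboMinus controls and cKO) and 1 to 1 (interaction); library 0 to 2 (GV), 1 to 2 (MII), 5 to 6 (controls by stage) and 6 to 8 (cKO by stage). Among estimates called in the reported or the alternative setting, 4 changed direction (small estimates called in neither also changed sign): Exosc9 in polyA cKO from GV to GV3h without V857 (0.3953; without V888 -0.7087) and from GV to MII without V888 (-0.0583; without V857 0.9631), and Exosc8 with library totals in polyA controls from GV to MII (-0.0256) and in the cKO library comparison (-0.6297); the cause was not tested. Library totals shifted the median of all genes by -0.65 to 0.17 (log2) and DESeq2 size factors by -0.25 to 0.02. With library totals the library dependence of Exosc3 was not called (0.45 in controls, 0.52 in cKO oocytes).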
